A study of Mus musculus with 11 samples.

Results

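The Speer stretch of proximal chromosome 5 comprised 22 of the 52958 bins of about 50 kb in which read depth had been deposited, and 47924 of all bins were autosomal. A bin was a member when its midpoint lay in a fixed window of proximal chromosome 5 around the genes Speer4c, Speer4d and Speer4e, and the members ran from 14512088 to 16006999 of mm10 chromosome 5 (1-based). The window was chosen by its measured relative depth, which was known to differ between Tet iTKO and Ctrl libraries and between stages of culture. Differences in depth within it are therefore described and not tested.

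Low-coverage whole-genome sequencing of bulk DNA from mouse embryonic stem cells (mESC) gave 11 libraries in 7 groups. The design asks whether loss of TET or DNMT enzymes changes copy number along the genome. Ctrl cells carried Cre/ERT2, a Cre recombinase activated by tamoxifen, and Rosa26-LSL-H2b-Egfp, a green fluorescent histone reporter switched on by Cre. Tet iTKO cells carried both of these and Tet1,2,3 fl/fl, so that tamoxifen deletes the genes of the 3 enzymes that oxidise 5-methylcytosine. Dnmt TKO cells lacked Dnmt1, Dnmt3a and Dnmt3b, which place that mark, in the germline and carried neither Cre nor reporter in their label. Each of Ctrl and Tet iTKO was sequenced before treatment (1 library, Cre not activated, so the Tet alleles were still whole), after acute treatment with 1 µM tamoxifen for 2.5 days and 4 days of further culture (1 library), and as long-term monoclonal populations kept for 30 days (3 libraries). The labels do not say whether the 3 long-term libraries of a genotype were separate clones, so their spread may be technical. All cells were grown in 2i medium on feeder fibroblasts and sorted as living CD326+ Thy1.2- cells, with GFP+ added in the protocol for Ctrl and Tet iTKO. The protocol does not give a separate gate for the pre-treatment cells, in which Cre had not switched the reporter on. Per the study's methods the Ctrl and Tet iTKO lines came from different mice, so genotype and line cannot be told apart here. The Dnmt TKO library had no replicate and no matched early library. Pre-treatment and acute libraries are together called early below.

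Speer genes (spermatogenesis-associated glutamate-rich protein genes) form a rodent family that is present in many near-identical copies and is known for expression in developing male germ cells. Families of this kind arise by tandem duplication, and the number of copies can differ between mouse strains and between lines. When a reference assembly holds fewer copies than the cells, reads of the missing copies are placed on the copies that are present, and depth there rises above the single-copy level. Depth therefore reads the number of copies in the whole group and not in one gene.

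The shared sequence of the members is shown first, because it sets what depth can resolve. The letters below are the 250 bases before the annotated start of each gene, from RefSeq on GRCm38.p6, written 5′ to 3′ on the strand of the gene. Capitals mark bases that differ from Speer4c when the sequences are laid over each other without gaps.
Speer4c (chr5:15714272-15714521, minus strand): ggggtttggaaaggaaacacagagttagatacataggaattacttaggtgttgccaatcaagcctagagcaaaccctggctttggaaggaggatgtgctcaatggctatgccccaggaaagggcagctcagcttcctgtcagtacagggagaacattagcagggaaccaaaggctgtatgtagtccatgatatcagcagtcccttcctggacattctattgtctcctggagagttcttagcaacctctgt
Speer4d (chr5:15618849-15619098, plus strand): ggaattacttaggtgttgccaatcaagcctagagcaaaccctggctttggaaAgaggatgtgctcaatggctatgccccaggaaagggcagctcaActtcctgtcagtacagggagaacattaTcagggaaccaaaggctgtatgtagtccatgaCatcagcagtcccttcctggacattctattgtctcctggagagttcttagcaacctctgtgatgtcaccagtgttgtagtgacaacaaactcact
Speer4e (chr5:14938476-14938725, minus strand): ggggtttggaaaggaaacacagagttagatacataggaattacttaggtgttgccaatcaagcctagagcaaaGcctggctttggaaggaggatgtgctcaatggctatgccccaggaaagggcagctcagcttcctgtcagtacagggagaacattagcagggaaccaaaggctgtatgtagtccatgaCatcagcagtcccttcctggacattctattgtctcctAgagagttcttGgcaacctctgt
Speer4e differed from Speer4c at 4 of 250 positions. The annotated start of Speer4d lay 35 bases further along the shared sequence, and with that shift it also differed at 4 of 250. Reads from these windows therefore tell the copies apart by few bases. The longest run present in all 3 windows is 42 bases long: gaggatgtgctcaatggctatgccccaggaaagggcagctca. On either strand it occurred in 17 of 32851 promoter windows of the genome (0.0517%), 6 of them in the stretch and 11 outside it. Those 6 include the 3 windows from which the run was taken. The windows of Gm9758, Gm10354 and Gm21083, also in the stretch, lacked it, so it does not mark every copy.

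The reference holds 10 protein-coding genes in the repeated block. Their order along the chromosome was Gm9758, Speer4e, Gm10354 and Gm17019 before an assembly gap, then Gm21149, Gm21190, Gm21083, Speer4d, 4930572O03Rik and Speer4c after it. Among the 9 with a RefSeq promoter window, the 8 other than Speer4c were between 97.9% (Gm9758) and 99.1% (Gm21190) identical to Speer4c over their aligned bases, so that the gene models without a Speer name share its upstream sequence. Pclo, which encodes the presynaptic scaffold protein Piccolo, occupied the left end of the stretch. Cacna2d1, which encodes an auxiliary subunit of voltage-gated calcium channels, began at its right end. The gap is a run of undetermined bases of 395 kb, from 15062667 to 15457666, and no bin covered it. Alignment of the stretch to itself placed the repeated block between 14871130 and 15716299. Of its 845 kb, 450.2 kb were resolved sequence.

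Repetition in the reference divided the 22 bins into 3 sets without use of depth. In 8 core bins, between 45.9% and 68.8% of all 50-base words occurred again within the stretch. In 2 edge bins the shares were 28.5% (left, end of Pclo and start of Gm9758) and 18.4% (right, Speer4c). In the 12 outer bins, which held Pclo, Cacna2d1 and no other protein-coding gene, the share was 12.4% or less. The limits between the sets, 15% and 40%, were drawn after the values had been seen.

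Depth is given relative to the median autosomal bin of the same library, so that a value of 1 stands for 1 copy per haploid genome where the reference holds 1. Libraries held 555 to 812 megabases of mapped sequence, and a typical autosomal bin held 215.0 to 315 reads at 50 bases each. That length comes from the deposited values, while the study's methods keep only longer reads. With longer reads the counts would be lower and the Poisson intervals below wider. The deposited values had not been corrected for GC content or mappability. Chromosome Y separated early from long-term libraries of both genotypes, with a relative depth of 0.0269 to 0.0381 in the 4 early libraries against 0.463 to 0.558 in the 6 long-term ones and 0.457 in Dnmt TKO, while chromosome X lay between 0.560 and 0.592 in all 11. Stage of culture and line of cells therefore cannot be told apart in any comparison of early with long-term libraries.

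The core bins were raised above the single-copy level in every library, and they stood at 4 levels. The mean over the 8 core bins was 1.78, 1.77 and 1.79 in the 3 long-term Ctrl libraries. It was 3.58 in the pre-treatment and 3.70 in the acute Ctrl library. In Tet iTKO it was 5.36 before treatment, 5.31 after acute treatment and 5.42, 5.40 and 5.33 in the long-term libraries. The Dnmt TKO library had 3.05. The 5 Tet iTKO libraries were thus highest, early Ctrl stood between them and long-term Ctrl, and Dnmt TKO lay just below early Ctrl. Averaged over all 22 bins, with the outer bins included, the levels were 1.29 to 1.32 in long-term Ctrl, 1.97 and 2.04 in early Ctrl, 2.64 to 2.72 in Tet iTKO and 1.75 in Dnmt TKO. No core bin of any Tet iTKO library (lowest 4.92) overlapped any of Ctrl (highest 4.09). That separation is a description only, because the window was chosen by its depth. The 8 core bins also share reads, so they do not count as 8 separate observations of it.

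**Figure D1:**
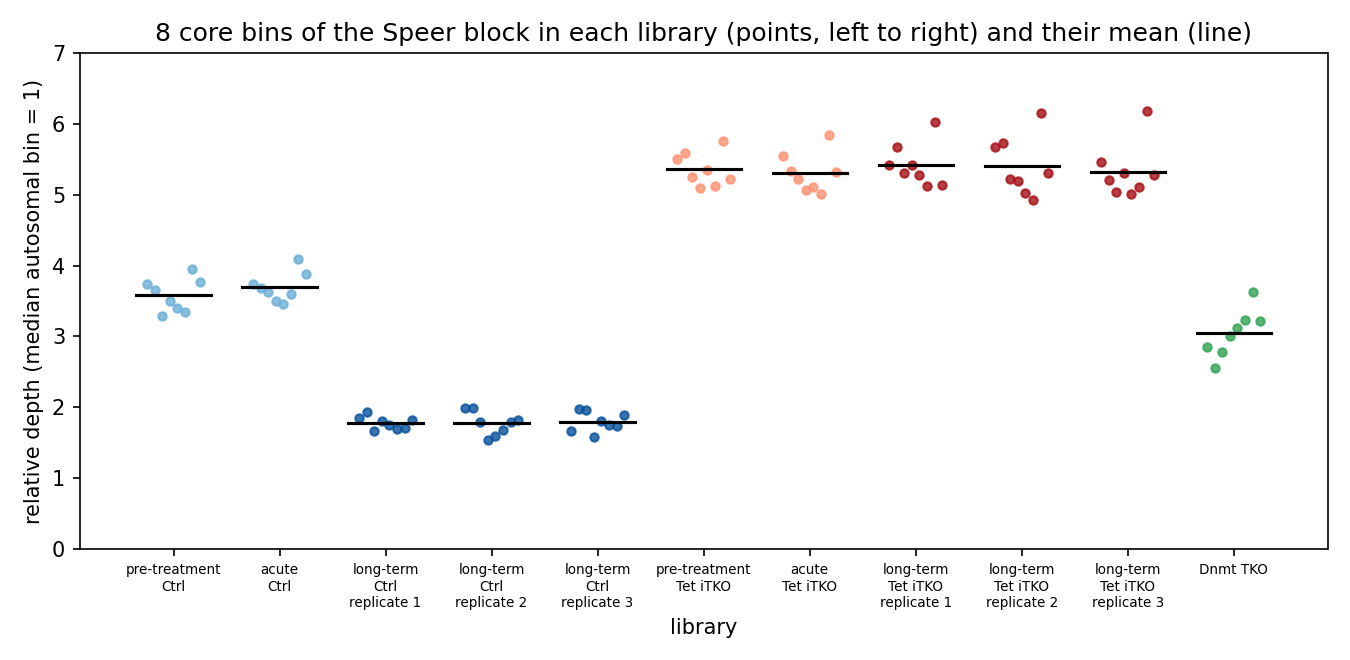
Relative depth (vertical axis, median autosomal bin = 1) of the 8 core bins in each of the 11 libraries (points, in chromosome order from left to right) with their length-weighted mean (black line). The means lie at 1.77 to 1.79 in long-term Ctrl, 3.58 and 3.70 in early Ctrl, 5.31 to 5.42 in Tet iTKO and 3.05 in Dnmt TKO.

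The core of long-term Tet iTKO was at 5.38 ± 0.0508 (SD, n = 3) and that of long-term Ctrl at 1.78 ± 0.0103 (SD, n = 3), a ratio of 3.02. The SD of this core mean between libraries was no larger than counting error, which was 0.0526 and 0.0295 for a single library. Counting error alone gave a 95% Poisson interval of 1.71 to 1.84 for long-term Ctrl replicate 2, which had the fewest reads in the core (3047), and of 5.32 to 5.52 for long-term Tet iTKO replicate 1, which had the most (11033). These intervals cover counting error only.

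The 1 pre-treatment Tet iTKO library, in which the Tet alleles were still whole, had a core level of 5.36. Its chromosome Y depth was 0.0381, against 0.549 to 0.558 in the long-term Tet iTKO libraries. Stage and line of cells therefore cannot be told apart between them. The ratio of Tet iTKO to Ctrl was 1.497 before treatment and 1.44 after acute treatment, and it differed from the long-term ratio because Ctrl differed. Within Tet iTKO, long-term over early libraries gave a ratio of 1.01. Acute over pre-treatment gave 0.990 in Tet iTKO and 1.03 in Ctrl. The level before and after acute treatment was thus close in each genotype, with 1 library per point and 95% Poisson intervals of 3.51 to 3.66 and 3.61 to 3.78 in Ctrl and of 5.26 to 5.47 and 5.20 to 5.41 in Tet iTKO.

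Early Ctrl was 2.04 times as deep in the core as long-term Ctrl. Its mean of 3.64 lay near 3.57, the midpoint between long-term Ctrl and the mean of all Tet iTKO libraries. A bulk library gives a mean over cells, so a level that all cells share and a mixture of cells with different levels cannot be told apart. The gap between early and long-term Ctrl runs along with the Y difference given above, and its part in the result was not tested.

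Dnmt TKO had 1.71 times the core depth of long-term Ctrl and 0.838 times that of early Ctrl, with a 95% Poisson interval of 2.97 to 3.13 for its level of 3.05. It was the library whose core was least even. Its bins ranged from 2.56 (Gm10354) to 3.63 (Speer4d), a coefficient of variation of 10.8% where counting error gives 3.79%. In the 5 Tet iTKO libraries the coefficient ranged from 4.39% to 7.65%, against 2.71% to 2.87% from counting. In long-term Ctrl it was 5.15%, 9.47% and 7.93%, against 4.23% to 5.10% from counting, and in early Ctrl 6.57% and 5.61%.

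The unevenness of Dnmt TKO followed the assembly gap. Its 3 core bins left of the gap averaged 2.73 and the 5 right of it 3.24, a ratio of 1.19. The same ratio was 1.01 in both early Ctrl libraries, 0.960 to 1.03 in Tet iTKO and 0.874 to 0.966 in long-term Ctrl. Dnmt TKO was thus the library with the highest value on the right relative to the left, and the long-term Ctrl libraries were on average at the other end. This split at the gap was drawn after the values had been seen.

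The bin of Speer4d shows the pattern at its widest. Speer4d (ENSMUSG00000070933.10, 15619064 to 15623864, plus strand) shares a bin with 4930572O03Rik (15652286 to 15657059, minus strand), another gene model of the block. Its relative depth was 1.71, 1.78 and 1.73 in long-term Ctrl, 3.95 and 4.09 in pre-treatment and acute Ctrl, and 3.63 in Dnmt TKO. In Tet iTKO it was 5.76 before treatment, 5.84 after acute treatment and 6.02, 6.15 and 6.19 in the long-term libraries. It was the deepest of all 22 bins in the 8 libraries other than long-term Ctrl. In those 3, the bin of Gm10354 was deepest, at 1.94, 1.99 and 1.97. The long-term ratio of Tet iTKO to Ctrl was 3.51 at Speer4d, the highest of the core, and 2.81 at Gm10354, the lowest. Speer4d also had the largest share of words repeated in the stretch, 68.8%.

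The bin of Speer4e gave the same order of groups. Speer4e (ENSMUSG00000091255.1, 14933221 to 14938429, minus strand) lies in the first core bin with part of Gm9758. Its depth was 1.85, 1.98 and 1.66 in long-term Ctrl, 3.74 and 3.73 in early Ctrl, and 2.85 in Dnmt TKO. Tet iTKO had 5.50 before treatment, 5.55 after acute treatment and 5.42, 5.68 and 5.46 in the long-term libraries. The long-term means were 5.52 ± 0.140 and 1.83 ± 0.163 (SD, n = 3 each). Early Ctrl and Dnmt TKO differed more here than at Speer4d.

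The bin of Speer4c was only slightly raised. Speer4c (ENSMUSG00000073208.12, 15709501 to 15714271, minus strand) is the last gene of the block, and most of its bin lies beyond the right end of the self-alignment. Depth was 1.09, 1.22 and 1.01 in long-term Ctrl, 1.48 and 1.44 in early Ctrl, and 1.33 in Dnmt TKO. It was 1.70, 1.76, 1.71, 1.78 and 1.64 in the pre-treatment, acute and 3 long-term Tet iTKO libraries. The order of the groups was that of the core, on a smaller scale. The left edge bin behaved alike, with 1.04 to 1.12 in long-term Ctrl, 1.47 and 1.58 in early Ctrl, 1.32 in Dnmt TKO and 1.88 to 2.20 in Tet iTKO.

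The other gene models of the block, all core bins, kept the order of groups in each bin. Gm10354, Gm17019, Gm21149, Gm21190 and Gm21083 lay between 1.53 (Gm21149) and 1.99 (Gm10354) in long-term Ctrl and between 4.92 (Gm21083) and 5.73 (Gm10354) in Tet iTKO. The last core bin, which holds no protein-coding gene, had 1.83, 1.82 and 1.89 in long-term Ctrl and 5.13, 5.30 and 5.28 in long-term Tet iTKO. Over all core bins the ratio of long-term Tet iTKO to long-term Ctrl ranged from 2.81 to 3.51, that of early Ctrl to long-term Ctrl from 1.87 to 2.31, and that of Dnmt TKO to long-term Ctrl from 1.30 to 2.09. These bins share reads with each other, so they are not independent measurements of one level.

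**Figure D2:**
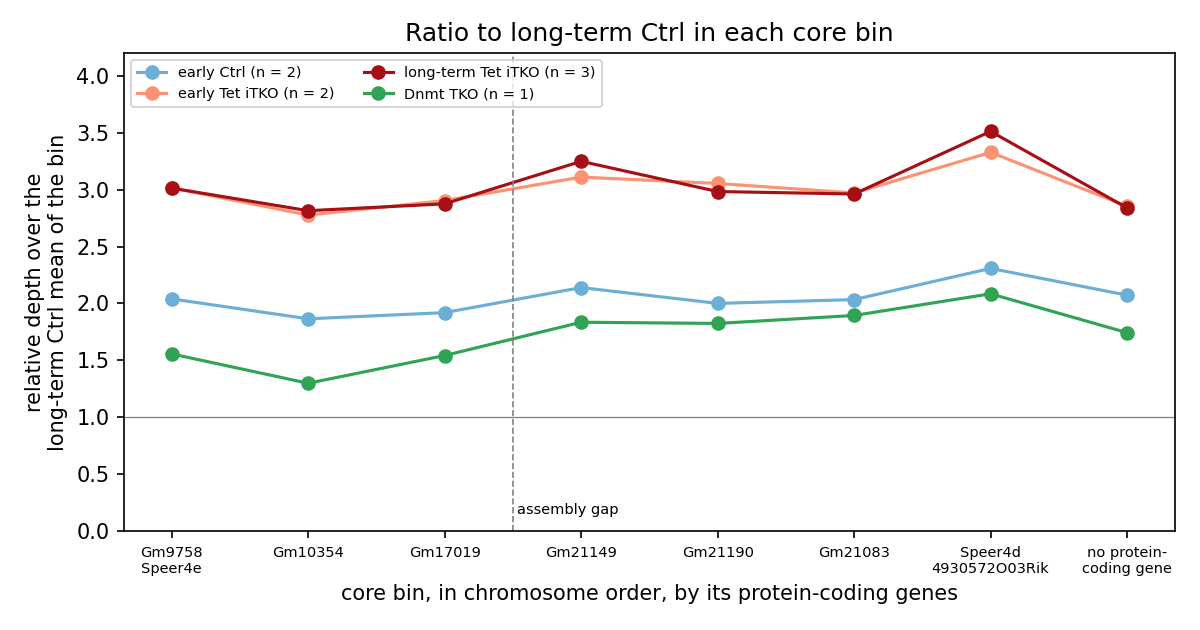
Relative depth of each core bin divided by the long-term Ctrl mean of that bin (vertical axis), in chromosome order with the protein-coding genes of the bin (horizontal axis), for early Ctrl, early and long-term Tet iTKO and Dnmt TKO; lines join group means. Long-term Tet iTKO runs from 2.81 to 3.51, early Ctrl from 1.87 to 2.31 and Dnmt TKO from 1.30 to 2.09, with its 3 lowest values left of the assembly gap.

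The raised bins were the repeated ones in every group. The 12 outer bins lay between 0.887 and 1.18 in all 11 libraries. Their mean was 1.02 ± 0.0294 in long-term Tet iTKO and 1.03 ± 0.0287 in long-term Ctrl (SD, n = 3 each), a difference of -0.0133, smaller than either SD.

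**Figure D3:**
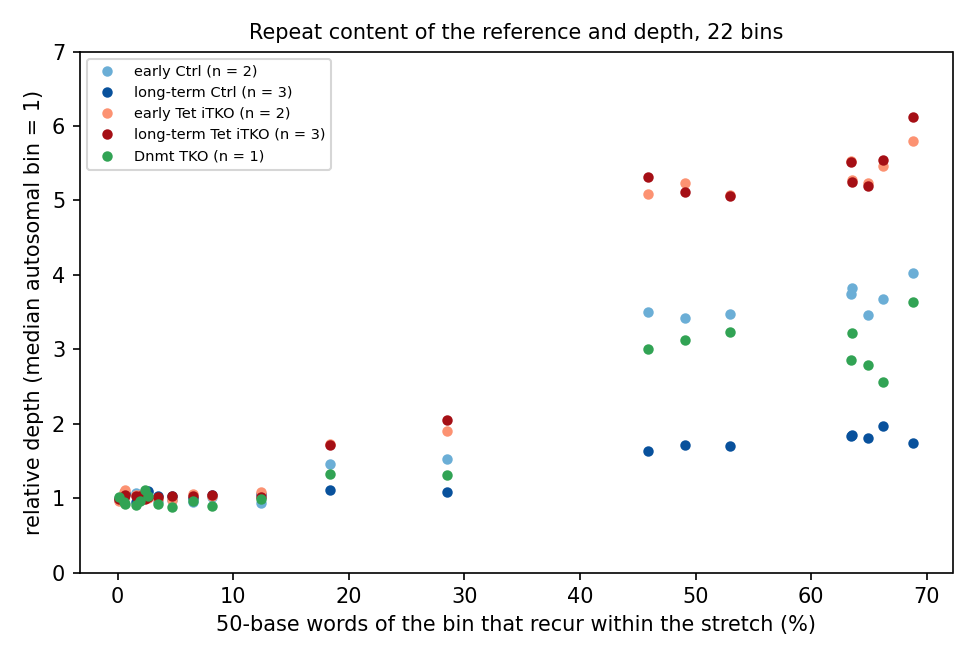
Relative depth of the 22 bins (vertical axis, group means) against the share of 50-base words of the bin that recur within the stretch in the reference (horizontal axis, %). The outer bins, at 12.4% or less, lie near 1 in every group, the edge bins at 18.4% and 28.5% are between, and the core bins from 45.9% to 68.8% separate the groups.

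The ends of the raised part can be placed inside the edge bins, on the assumption that depth steps from 1 to the core level of the same library. In Tet iTKO, where the step was largest, the left end came to 14.899 to 14.902 Mb and the right end to 15.715 to 15.716 Mb. Early Ctrl gave 14.902 to 14.903 Mb and 15.716 to 15.717 Mb, and Dnmt TKO gave 14.905 and 15.715 Mb. In long-term Ctrl, where the step was small, they ranged from 14.905 to 14.910 Mb and from 15.708 to 15.722 Mb. The right end lay beside the end of the self-alignment and just beyond Speer4c, and the left end lay between Pclo and Gm9758, inside the self-alignment.

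Copy levels follow from these depths by multiplication. A core depth of 1.78 in long-term Ctrl stands for 17.8 gene copies per haploid genome when each of the 10 annotated genes counts as 1 copy in the reference. The same estimate is 36.4 in early Ctrl, 53.6 in Tet iTKO and 30.5 in Dnmt TKO. In length, the block would hold 0.772 Mb per haploid genome in long-term Ctrl (0.771 to 0.772, n = 3), 1.53 and 1.58 Mb in early Ctrl, 2.25 to 2.31 Mb in Tet iTKO (n = 5) and 1.30 Mb in Dnmt TKO. The reference gives 0.845 Mb with its gap, so that long-term Ctrl was nearest to the length of the assembly. The estimates rest on the core being even and on all copies being placed in it. Some words of the core bins (1.98% to 16.8%) also occur on contigs that are not placed on a chromosome arm, for which no bins were used here, and reads on those would be missed.

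Across all autosomal bins the long-term comparison called 65 of 47924 (0.136%) at an adjusted p under 0.05 (limma, Benjamini-Hochberg), of which 15 were higher in Tet iTKO (0.0313%). Without long-term Tet iTKO replicate 3 there were 112 calls. In the fit of all 6 libraries, all 8 core bins and both edge bins were among those 15, as the choice of the window fixes, and they had the 10 largest differences of the 15. On the log2 scale of relative depth the core differed by a median of 1.54 (1.47 to 1.78) and the edge bins by 0.61 and 0.89, against a median of 0.00 over all bins. Outside the stretch, the called differences reached 0.46 among bins higher in Tet iTKO and -0.65 among bins lower in it. None of the 12 outer bins passed.

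Single libraries were read against a log2 difference of 0.5. Before treatment 7 of 8 core bins passed it (background 0.0334% of all autosomal bins higher in Tet iTKO), and after acute treatment 6 of 8 did (background 0.0334%), with medians of 0.58 and 0.52. Both comparisons use Ctrl libraries of the same stage. Long-term Ctrl against pre-treatment Ctrl had 8 of 8 core bins lower (background 0.0167%), with a median of -0.99. The 8 bins are all the autosomal bins that fell below the threshold in that comparison. Long-term against pre-treatment Tet iTKO had 0 of 8 (background 0.00209% higher), with a median of -0.01. Dnmt TKO against long-term Ctrl had 7 of 8 higher, with a median of 0.82, but its background was far wider, at 2.19%. No edge bin or outer bin passed 0.5 in any of these 5 comparisons.

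**Figure D4:**
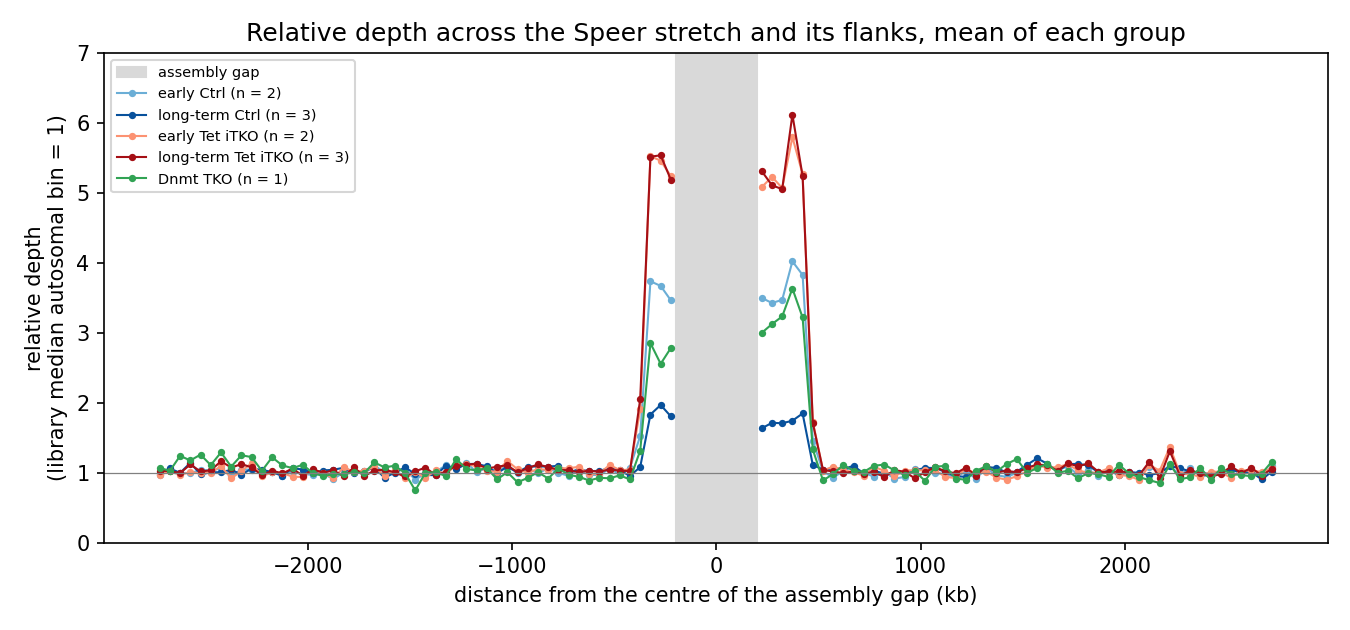
Relative depth (vertical axis, median autosomal bin = 1) of the 22 bins of the stretch and 80 bins of its flanks, plotted by distance from the centre of the assembly gap (kb) as group means; the grey band is the gap of 395 kb. Core bins separate at 1.78, 3.05, 3.64 and above 5. In single libraries the flank bins range from 0.745 (Dnmt TKO, at Speer3) to 1.38 (pre-treatment Tet iTKO, at Speer4f1).

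The flanks of 2 Mb on each side showed no difference of the size seen in the core. They held 80 bins, with Sema3e, which encodes an axon guidance cue, as the nearest protein-coding gene on the left and the rest of Cacna2d1 on the right. Their mean was 1.03, 1.04 and 1.03 in long-term Ctrl and 1.05, 1.03 and 1.03 in long-term Tet iTKO. Without GC correction the groups overlapped, with a difference of 0.00517 (exact two-sided permutation test, p = 0.5, where 3 against 3 cannot give less than 0.1). No flank bin was called by limma at an adjusted p under 0.05, and 9 of 80 had an unadjusted p under 0.05, against 2909 of 47924 autosomal bins (6.07%). The median difference of the flank bins was 0.00 on the log2 scale.

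The flank bins with the lowest unadjusted p were those of Speer4f1 and Speer4f2, further Speer genes. The Speer4f1 bin (17455243 to 17505181) had 1.13, 1.04 and 1.11 in long-term Ctrl, 1.08 and 1.11 in early Ctrl and 1.12 in Dnmt TKO. Tet iTKO had 1.38 and 1.35 in the early and 1.35, 1.27 and 1.30 in the long-term libraries, so that all 5 lay above all Ctrl libraries. The long-term difference was 0.25 ± 0.07 (log2, SE), and limma gave an adjusted p of 0.295. At Speer4f2 (17355364 to 17405303) the early libraries overlapped, with 1.14 and 1.02 in Ctrl and 1.14 and 1.08 in Tet iTKO, while long-term Ctrl had 1.02, 0.968 and 0.924 and long-term Tet iTKO 1.16, 1.16 and 1.15. That difference was 0.24 ± 0.07 (log2, SE) with an adjusted p of 0.317 from limma. Neither passed the threshold.

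No bin of a Speer gene elsewhere on the autosomes passed the long-term test. Speer1, Speer2, Speer3, Speer4a, Speer4b, Speer4f1, Speer4f2 and the pseudogenes Speer5-ps1, Speer6-ps1 and Speer9-ps1 were covered by 12 bins. At an adjusted p under 0.05 limma called 0 of them, and 3 had an unadjusted p under 0.05, which 6.07% of all autosomal bins had, with log2 differences of -0.09 to 0.25 and a median of 0.04. Speer4a, on chromosome 5 at 26032846 to 26039558, was the only one above 1.4 in any Ctrl library. It lay between 1.47 and 1.63 in Ctrl and between 1.45 and 1.67 in Tet iTKO, with 2.10 in Dnmt TKO. Its promoter was 96.5% identical to that of Speer4c over the aligned bases, and that of Speer4b 98.0%.

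**Figure D5:**
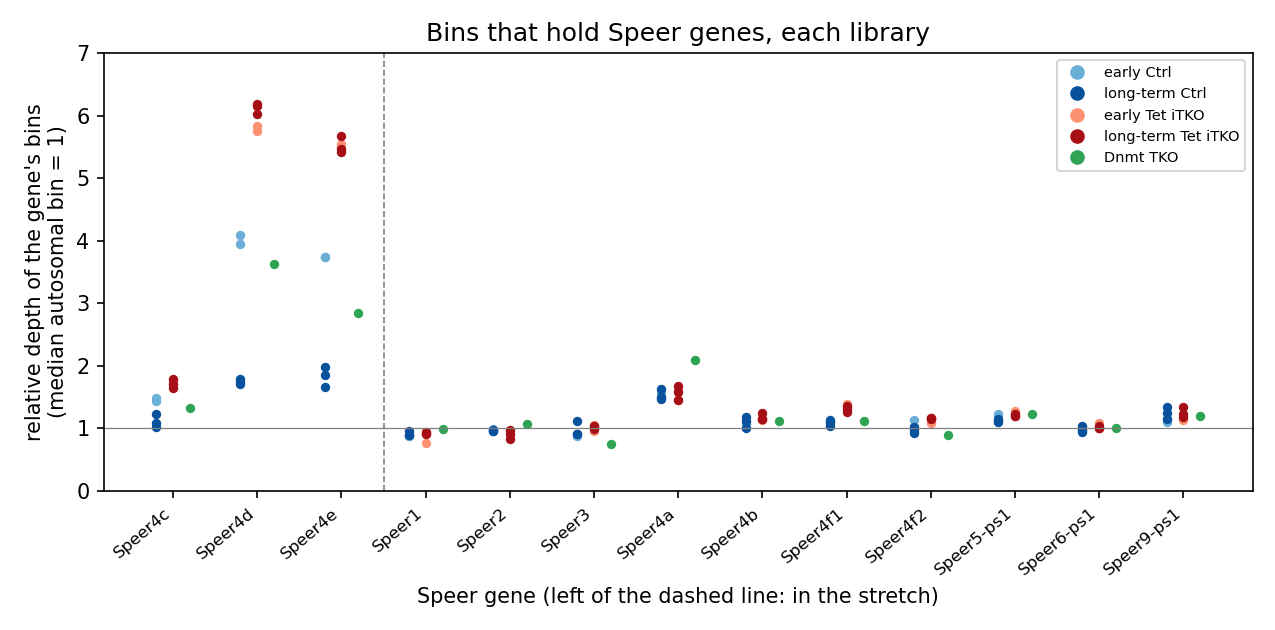
Relative depth of the bins that hold each Speer gene (vertical axis, median autosomal bin = 1), 1 point per library, with Ctrl, Tet iTKO and Dnmt TKO side by side for each gene. Speer4d and Speer4e separate the groups widely and Speer4c slightly, while the genes right of the dashed line stay between 0.745 and 2.10 with Ctrl and Tet iTKO overlapping, except at Speer4f1.

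Depth above 1 was not by itself accompanied by such differences. Outside the stretch, 205 autosomal bins had a mean relative depth of 1.5 or more in long-term Ctrl. Their ratio of long-term Tet iTKO to long-term Ctrl ranged from 0.794 to 1.21 with a median of 1.01, and that of early to long-term Ctrl from 0.667 to 1.28 with a median of 0.987. This limit was chosen after the values had been seen.

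Likeness to the profile of the stretch over the 11 libraries was sought only in bins of varying depth. An SD of at least 0.25 was reached by 487 bins, and bins below it were not compared. None of those compared followed the profile closely. Among autosomal bins outside the stretch and its flanks whose log2 relative depth had an SD of 0.25 or more, the highest Pearson correlation with the mean of the stretch was 0.39 (n = 11 libraries, a description), at chromosome 13, 119595506 to 119643913, with Tmem267 and the chemokine gene Ccl28. There Tet iTKO had 8.03 to 8.49, early Ctrl 6.99 to 7.06, long-term Ctrl 6.65 to 6.98 and Dnmt TKO 2.66. The next 4 bins had correlations of 0.30 to 0.35, and the protein-coding genes in them were Gm4498 and Gm5890 on chromosome 7 and D13Ertd608e on chromosome 13. In all of the 5, Dnmt TKO had the lowest value, unlike in the stretch.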

How the data were processed

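Low-coverage sequencing of bulk mESC DNA gave 11 libraries. Per the study's methods, single-end reads from PCR-free libraries were mapped to mm10 with BWA-mem and optical duplicates were removed with Picard MarkDuplicates. The processing notes of the samples list BSMAP 2.74v and Picard instead, so the aligner of these files is uncertain. For each bin the authors deposited mean coverage, a signal not scaled to the library. The deposited log2 column equalled the log2 of that depth to within 4.05e-05. Of 3432 values under 400 bases, 98.2% were multiples of 50 bases (to within 0.05 of a read), the read length used for counts. BWA, if it was the aligner used, places reads that fit several copies equally well on one of them at random.

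The members and lists were chosen with earlier results of these data known. Depth was divided by the median autosomal bin depth of each library (numpy 2.4.6, pandas 2.3.3, Python 3.11.15). Bins were weighted by length. Autosomal bins with a mean of at least 0.1, which was all of them, were tested between the long-term groups as log2(value + 0.05) with limma 3.58.1 (R 4.3.3; lmFit, eBayes, two-sided, Benjamini-Hochberg adjustment). Single-library comparisons used a log2 difference of 0.5 and no test. Repeated 50-base words and self-alignment (minimap2 2.31, at least 5000 matching bases) used GRCm38.p6, which is mm10, and genes came from GENCODE M21. Identities came from local alignments (biopython 1.88). GC correction, where used, was a lowess curve (span 0.3, 3 iterations, statsmodels 0.14.6). Poisson intervals are exact at 95% (scipy 1.17.1). At 50 bases per read, pairs of long-term libraries of one genotype differed by slightly more than counting noise (chi-square per degree of freedom 1.02 to 1.15). With longer reads this value would be lower, and it does not show that the libraries were separate clones. Each was counted as a sample. Over the core bins alone this value was 1.30 to 1.85 in long-term Ctrl and 0.826 to 1.21 in long-term Tet iTKO. The fit was also run on simulated reads drawn from the long-term Ctrl profile. That simulation held counting noise only, without reads shared between copies, so it does not cover the repeated bins.

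Named genes were Speer4c, Speer4d, Speer4e, all protein-coding genes of the stretch, other autosomal Speer genes, the nearest flank genes and those of the 5 bins most alike. Alternatives covered the divisor, the summary over bins, GC correction, flank width, pseudocount, filter, variance model, bin size, a block for replicate number and the omission of single long-term libraries. Figures used matplotlib 3.10.9.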

Additional observations from a re-analysis of the deposited data

How the results depend on the processing

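Differences over the 22 bins of the stretch kept their direction under the alternatives run, except that of Dnmt TKO under the median over bins, which reads outer bins because 12 of the 22 are outer. With the median, long-term Tet iTKO minus Ctrl fell from 1.37 to 0.00345, the pre-treatment difference from 0.702 to 0.0596, the acute one from 0.619 to 0.00640 and long-term minus early Ctrl went from -0.698 to -0.0175, and Dnmt TKO minus long-term Ctrl turned from 0.443 to -0.0198. Over the 8 core bins alone, chosen after seeing the data, the same 5 differences were 3.60, 1.78, 1.61, -1.86 and 1.27. Without the deepest bin, the long-term Tet iTKO, long-term against early Ctrl, and Dnmt TKO differences were 1.23, -0.623 and 0.374. Divided by the flanks, the former pair were 1.32 and -0.714, and the level over the stretch was 1.27 in long-term Ctrl (1.31 otherwise), 2.57 in acute Tet iTKO (2.66), 2.59 in its long-term libraries (2.68) and 1.70 in Dnmt TKO (1.75). Divided by the mean autosomal depth, the Dnmt TKO difference was 0.416. GC correction moved none of these by more than the spread used for comparison. Leaving out 1 long-term library gave 1.36 to 1.4 for long-term Tet iTKO minus Ctrl, -0.704 to -0.689 for long-term minus early Ctrl, 0.434 to 0.448 for Dnmt TKO minus long-term Ctrl and 0.000688 to 0.00852 for the flanks. The flank difference of 0.00517 became -0.00496 with flanks of 1 Mb. It became 0.0135 with GC correction (exact permutation test, p = 0.1). That is the smallest p that 3 against 3 can give, so with GC correction all long-term Tet iTKO flank means lay above those of long-term Ctrl.

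The 65 calls became 43 with sums of 2 adjacent bins, where fewer features were tested, and ranged from 47 to 112 when 1 library was left out, with 112 without long-term Tet iTKO replicate 3. Flank bins and bins of other Speer genes gave 0 calls in all of these fits. Same-numbered libraries did not deviate together (correlations of 0.001, -0.005 and 0.002). Spread within a group was close to counting noise, so these values cannot decide whether the numbers pair the samples. With a replicate block there were 80 calls. The precision of a bin is limited by its 215.0 to 315 reads per copy, and groups with 1 library have no replicate error.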

Other observations

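The run of 42 bases shared by Speer4c, Speer4d and Speer4e was also found upstream of 11 genes outside the stretch, all on chromosome 5, and their starts lay in 8 bins. They comprised Speer4f1, Speer4b and a group between 25895003 and 26294518 that holds Gm21663, Gm21671, Gm21698, Gm1979, Gm5862, Gm7347, 5031410I06Rik, Gm10220 and Gm7361 around Speer4a. No bin of these 8 passed the long-term test (limma, lowest adjusted p = 0.295, at Speer4f1), and long-term Tet iTKO was higher by 0.02 to 0.25 on the log2 scale. Dnmt TKO was within the range of Ctrl at Speer4f1 (1.12, against 1.04 to 1.13) and Speer4b (1.12, against 1.01 to 1.18) and above the Ctrl libraries in the other 6 bins. It was nearest to them in the bin of 5031410I06Rik and Gm10220, with 1.502 against 1.19 to 1.46. In the bin of Gm21671 and Gm21698 it had 2.05, against 1.37 to 1.65 in Ctrl and 1.47 to 1.66 in Tet iTKO, and in the bin of Gm7347 it had 1.97, against 1.27 to 1.39 and 1.22 to 1.46. In the bin of Gm1979 and Gm5862 it had 2.10, against 1.47 to 1.63 and 1.45 to 1.67. The share of all autosomal bins in which Dnmt TKO lies above every Ctrl library was not counted, so the 6 bins have no background. By the threshold of 0.5 in log2, 2.19% of all autosomal bins were higher in Dnmt TKO than in long-term Ctrl. Most bins of the group around Speer4a lie side by side, so they are not separate observations. The Dnmt TKO values rest on 1 library, and these bins were listed after the values of the stretch were known.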
